A study of Mus musculus with 3 samples.

Results

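The genes described here are 7 costimulatory and checkpoint genes of the antigen-presenting cell, chosen by name from the 32285 genes counted. *Cd80*, *Cd86*, *Cd40* and *Icosl* were taken as the activating members, and *Cd274*, *Pdcd1lg2* and *Havcr2* as the inhibitory members. All 7 had at least 50 UMIs over the libraries, as did 13414 of the 32285 genes, and only those were compared. The cells were bone marrow derived macrophages (BMDMs) of female C3H/HeN mice aged 6 to 8 weeks, grown in medium conditioned by L929 cells, a source of macrophage growth factor. Control cells (Ctrl) received PBS, and treated cells received purified lipoproteins of *Borrelia burgdorferi* (*Bb*LP) at 1 µg/mL, and were taken after 1 hour as LP1 and after 4 hours as LP4. Wells were pooled into 1 droplet library for each condition, so the spread between cultures was not measured and no test between conditions was run. Control cells were collected at 4 hours, so LP1 also differed from Ctrl in the time of collection.

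A T cell that meets its antigen needs a further signal from the presenting cell. CD80 and CD86 give it through CD28 and can also engage the inhibitory receptor CTLA-4, and ICOS ligand, the product of *Icosl*, engages ICOS. CD40 is a receptor on the macrophage that takes a signal from CD40 ligand on T cells. PD-L1 (*Cd274*) and PD-L2 (*Pdcd1lg2*) bind PD-1 and restrain the T cell, and TIM-3 (*Havcr2*) is a receptor with largely restraining roles on T cells and myeloid cells.

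The 3 libraries held 6123, 5119 and 5039 barcodes for Ctrl, LP1 and LP4, of which 6071, 5065 and 4670 passed the limits on UMIs, genes and mitochondrial share. The kept cells carried between 35688939 and 61402275 UMIs per library, and their median depth was 5133, 9343 and 11784 UMIs for Ctrl, LP1 and LP4. Between 4 and 10 barcode sequences were shared by any pair of libraries. The 8 macrophage markers were all detected, at 11460, 11693 and 10570 summed CPM (UMIs of a gene per 1000000 UMIs of the library) in Ctrl, LP1 and LP4, and macrophage-like and cycling-like clusters held 5932, 4963 and 4519 cells. Of the T cell markers, *Cd3e*, *Trbc2* and *Cd8a* were at 0 UMIs in every library, and *Cd3d*, *Cd3g* and *Trac* had at most 4. The other markers of that list were not absent. *Lck* had 9, 17 and 144 UMIs and *Cd4* 36, 33 and 79 UMIs in Ctrl, LP1 and LP4. Stromal markers were higher in LP4 (6 of 6 past 2 times; 4.29, 5.85 and 19.7 CPM summed for Ctrl, LP1 and LP4), and neutrophil markers summed to 379, 285 and 528 CPM; their part in the results below was not tested, but the log2 ratios of LP4 over Ctrl within the macrophage-like and cycling-like clusters alone were 2.62 for *Cd274*, 2.02 for *Cd40*, -1.19 for *Cd86* and -1.73 for *Cd80*.

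Promoter sequence is shown for the neighbouring genes *Cd274* and *Pdcd1lg2*, which differed most in level among the inhibitory members, and for *Cd80*, the activating member with the lowest ratio at 4 hours. The sequences come from RefSeq on GRCm38.p6, 5′ to 3′ on the + strand, upstream of the RefSeq start. Of the 7 members 5 matched a promoter there. For *Cd274* only the 47 bases that lie in no annotated exon are printed (chr19:29367391-29367437), since the neighbouring gene *Plgrkt* starts in the rest of the window. The windows of *Pdcd1lg2* (chr19:29410669-29410918) and *Cd80* (chr16:38458683-38458932) are 250 bases each; the RefSeq start of *Cd80* lies inside the gene as GENCODE annotates it, so that window is not upstream of the GENCODE start. Capitals in *Cd80* mark a match to TGANTCA, the core of AP-1 sites.
Cd274: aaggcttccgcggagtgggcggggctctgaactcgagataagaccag
Pdcd1lg2: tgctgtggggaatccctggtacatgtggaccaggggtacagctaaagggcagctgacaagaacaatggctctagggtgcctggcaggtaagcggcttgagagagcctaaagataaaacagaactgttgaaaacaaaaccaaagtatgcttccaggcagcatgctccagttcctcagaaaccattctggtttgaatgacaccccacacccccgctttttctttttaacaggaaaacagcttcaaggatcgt
Cd80: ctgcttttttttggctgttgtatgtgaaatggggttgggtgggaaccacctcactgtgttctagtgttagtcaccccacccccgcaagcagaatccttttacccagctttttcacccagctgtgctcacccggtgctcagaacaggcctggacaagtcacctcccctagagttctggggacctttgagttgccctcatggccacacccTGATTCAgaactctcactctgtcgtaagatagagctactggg

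The 250 bases upstream of each start were searched on both strands for the cores of the interferon-stimulated response element (GAAA, 2 bases of any kind, then GAAA, held by 2.98% of 32851 promoters), the gamma-activated site (TTCNNNGAA, 7.02%), the NF-κB site (GGGA, 2 bases of any kind, then TTCC, 1.21%) and the AP-1 site (TGANTCA, 6.75%). *Cd80* held the AP-1 core from -42 to -36 and *Havcr2* from -200 to -194. The windows of *Cd274*, *Pdcd1lg2* and *Icosl* held none of these letters. The *Icosl* window ends at 78069367, past the GENCODE start of the gene at 78069302, so it is not wholly upstream of that start.

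*Cd274* (ENSMUSG00000016496, chromosome 19, 29367455 to 29388095 on the + strand of GRCm38) encodes PD-L1. It was at 176 CPM in Ctrl (95% Poisson interval 172 to 180), 181 CPM in LP1 (177 to 184) and 1070 CPM in LP4 (1061 to 1078). LP1 lay close to Ctrl and LP4 was far above both. The log2 ratio of LP4 over Ctrl was 2.60 (exact interval 2.57 to 2.64, counting error only, as for all intervals here), or 6.08-fold, and 255 of the 13414 genes had a higher one. For LP1 over Ctrl it was 0.04 (-0.01 to 0.08). An antisense gene, *AC119228.1*, overlaps *Cd274* and had 271, 258 and 1591 UMIs in Ctrl, LP1 and LP4, against 6277, 9478 and 65676 for *Cd274*. Both genes have counts of their own, but the sources do not say how strand was used in counting. Whether reads of either gene were counted for the other was not tested.

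*Pdcd1lg2* (ENSMUSG00000016498, chromosome 19, 29410919 to 29471161 on the + strand) starts 22823 bp after the end of *Cd274*. It was scarce, with 25, 39 and 77 UMIs for Ctrl, LP1 and LP4. Its level was 0.700 CPM (0.453 to 1.03) in Ctrl, 0.743 CPM (0.528 to 1.02) in LP1 and 1.25 CPM (0.990 to 1.57) in LP4. Its log2 ratio of LP4 over Ctrl was 0.84 (0.17 to 1.55), below the limit of 2 times. Its antisense neighbour *A930007I19Rik* had 981, 1035 and 2013 UMIs, many more than *Pdcd1lg2*. Whether any of these reads were counted for *Pdcd1lg2* was not tested either, so the level of *Pdcd1lg2* is uncertain.

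*Havcr2* (ENSMUSG00000020399, chromosome 11, 46454935 to 46481255 on the + strand) had the ratio of LP4 to Ctrl closest to 1 among the members in CPM. It was at 24.3 CPM (22.8 to 26.0) in Ctrl, 20.6 CPM (19.4 to 21.8) in LP1 and 24.6 CPM (23.4 to 25.9) in LP4. Its log2 ratio of LP4 over Ctrl was 0.02, with an interval of -0.11 to 0.14; per cell it was 1.18, beside a median of 1.01 over all genes. That of LP1 over Ctrl was -0.24 (-0.37 to -0.11), though its sign turned when UMIs per cell were compared (0.57, beside a median of 0.78 over all genes).

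*Cd40* (ENSMUSG00000017652, chromosome 2, 165055627 to 165072948 on the + strand) had 1794, 2734 and 12584 UMIs in Ctrl, LP1 and LP4. Its level was 50.3 CPM (48.0 to 52.6) in Ctrl, 52.1 CPM (50.2 to 54.1) in LP1 and 205 CPM (201 to 209) in LP4. As with *Cd274*, LP1 lay close to Ctrl over the whole library. LP4 over Ctrl had a log2 ratio of 2.03 (1.96 to 2.10), or 4.08-fold, with 441 genes above it.

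*Cd86* (ENSMUSG00000022901, chromosome 16, 36603869 to 36666081 on the - strand) went the other way. It was at 165 CPM (161 to 169) in Ctrl, 126 CPM (123 to 129) in LP1 and 75.4 CPM (73.3 to 77.6) in LP4. The log2 ratio was -0.39 (-0.44 to -0.34) for LP1 over Ctrl and -1.13 (-1.18 to -1.07) for LP4 over Ctrl, where the median of all genes was -0.15. These ratios are of the share of UMIs counted. Over all cells *Cd86* averaged 0.970, 1.30 and 0.992 UMIs per cell for Ctrl, LP1 and LP4. Per cell its log2 ratio was 0.43 at 1 hour and 0.03 at 4 hours, where the medians of all genes were 0.78 and 1.01. Cells of the treated libraries carried more UMIs in all, and whether that came from the cells or from sequencing cannot be told apart.

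*Cd80* (ENSMUSG00000075122, chromosome 16, 38455561 to 38496335 on the + strand) had 461, 510 and 255 UMIs for Ctrl, LP1 and LP4. Its level was 12.9 CPM (11.8 to 14.2) in Ctrl, 9.72 CPM (8.89 to 10.6) in LP1 and 4.15 CPM (3.66 to 4.70) in LP4. The log2 ratio of LP4 over Ctrl was -1.64 (-1.86 to -1.41), or 3.11 times lower, and it was below 0 per cell too (-0.48). For LP1 over Ctrl it was -0.41 (-0.60 to -0.23) in CPM and 0.41 per cell, where the median of all genes was 0.78.

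*Icosl* (ENSMUSG00000000732, chromosome 10, 78069302 to 78083913 on the + strand) was at 2.24 CPM (1.78 to 2.79) in Ctrl, 2.52 CPM (2.10 to 2.98) in LP1 and 3.84 CPM (3.37 to 4.37) in LP4. LP4 over Ctrl had a log2 ratio of 0.78 (0.41 to 1.16), under the limit of 2 times. Counts of 3′ UMIs carry no correction between genes, so the order of levels among the 7 genes is only approximate: in Ctrl, *Cd274* and *Cd86* led, followed by *Cd40*, *Havcr2*, *Cd80*, *Icosl* and *Pdcd1lg2*, and in LP4 *Cd40* stood above *Cd86* while *Cd80* and *Icosl* had overlapping intervals.

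**Figure D1:**
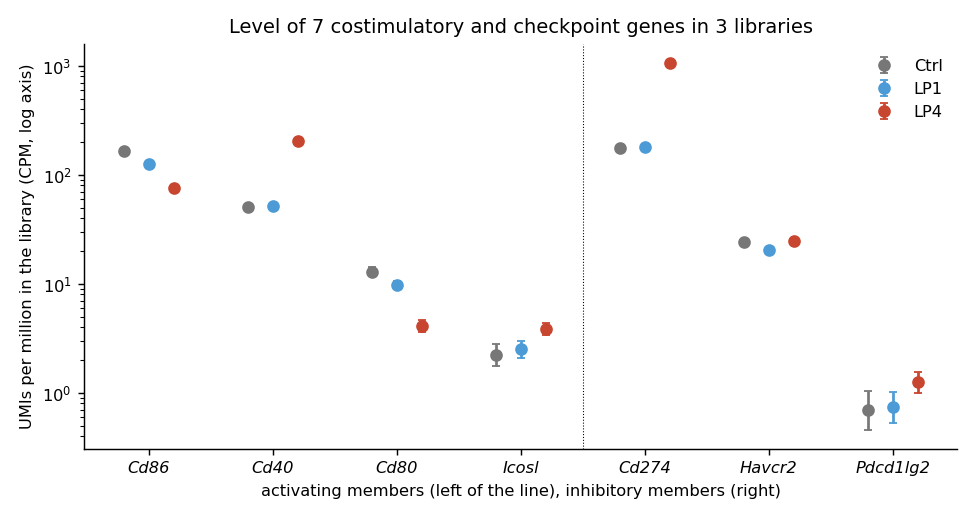
Level of each gene, in CPM on a log axis, in Ctrl (grey), LP1 (blue) and LP4 (red), 1 library each; bars are 95% Poisson intervals. *Cd274* reached 1070 CPM and *Cd40* 205 CPM in LP4, while *Cd86* went from 165 to 75.4 CPM and *Cd80* from 12.9 to 4.15 CPM. Per cell, *Cd86* had a log2 ratio of 0.03, beside a median of 1.01 over all genes.

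No member passed a change of 2 times at 1 hour, where 1.38% of the 13414 genes were higher and 2.51% lower than in Ctrl by at least that much. At 4 hours 2 of 7 were higher than in Ctrl (*Cd274* and *Cd40*) and 2 of 7 lower (*Cd80* and *Cd86*), beside 10.9% and 15% of all genes. With TMM scaling or median-of-ratios scaling, *Cd86* fell inside the limit and 1 member was lower; these scalings put the median of all genes at 0.02 and 0.06 instead of -0.15, and the share of all genes called changed to 13.6% higher and 11.5% lower with TMM and to 14.4% and 11% with median of ratios. From LP1 to LP4, 2 members were higher (*Cd274*, log2 ratio 2.57, and *Cd40*, 1.98) and 1 was lower (*Cd80*, -1.23), beside 9.88% and 12% of all genes. Against Ctrl, the higher pair at 4 hours was 1 inhibitory and 1 activating member, and both lower genes were activating members. At a limit of 1.5 times, 0 members were higher and 0 lower at 1 hour, beside 5.54% and 7.92% of all genes. For LP4 over Ctrl, 4 were higher and 2 lower, beside 19.9% and 29%, and for LP4 over LP1 also 4 and 2, beside 17.5% and 24.1%.

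**Figure D2:**
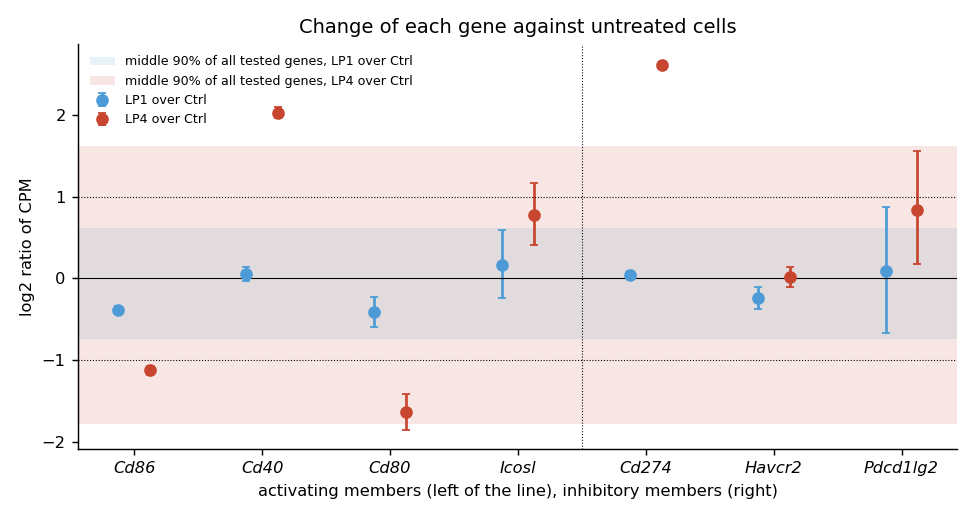
Log2 ratio of CPM against Ctrl for LP1 (blue) and LP4 (red), with exact 95% intervals for counting error; shaded bands hold the middle 90% of the 13414 genes in each comparison, and dotted horizontal lines mark 2 times. All LP1 points lie within 2 times, and at LP4 *Cd274* (2.60) and *Cd40* (2.03) lie above the band. *Cd86* at -1.13 lies within it, and per cell its ratio was 0.03, beside a median of 1.01 over all genes.

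The 4 activating members had a median log2 ratio of -0.18 for LP4 over Ctrl and the 3 inhibitory members 0.84, beside -0.15 over all genes. The inhibitory median is the value of the scarce *Pdcd1lg2* (0.17 to 1.55), between 2.60 for *Cd274* and 0.02 for *Havcr2*, so it shows no shift of the whole class. Summed, activating members gave 230, 190 and 288 CPM for Ctrl, LP1 and LP4. Inhibitory members gave 201, 202 and 1095 CPM. In CPM the activating sum was thus below Ctrl at 1 hour and above it at 4 hours. Per cell its main gene at 1 hour, *Cd86*, was above Ctrl (log2 ratio 0.43) but below the median of all genes (0.78). The inhibitory sum was close to Ctrl at 1 hour and above it at 4 hours.

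The ratio of inhibitory to activating UMIs does not depend on scaling between libraries. Ctrl stood at 0.872 (0.845 to 0.900), LP1 at 1.06 (1.03 to 1.09) and LP4 at 3.80 (3.74 to 3.86), a log2 change of 0.28 (0.22 to 0.34) at 1 hour and 2.12 (2.07 to 2.17) at 4 hours. The sums rest on few genes. *Cd274* gave 87.5%, 89.4% and 97.6% of the inhibitory UMIs in Ctrl, LP1 and LP4. The leading activating gene changed from *Cd86* (71.6%, 66.2% and 26.2% of activating UMIs) to *Cd40* (21.8%, 27.4% and 71.1%). Without *Cd86* the change at 4 hours was 0.74, and without the receptors *Cd40* and *Havcr2*, which leaves ligands alone, it was 3.71; the mean log2 ratio of inhibitory members exceeded that of activating members by 1.14. The change at 1 hour was 0.031 without *Cd86*, 0.42 without the receptors and 0.11 as a difference of means, so it rested largely on *Cd86*. The direction at 4 hours was the same in each. No interval was computed for the 0.031 at 1 hour, so no direction is read from it.

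To compare cells at equal depth, each was thinned to 2000 UMIs, which left 5949 Ctrl, 5052 LP1 and 4625 LP4 cells. Cells with a *Cd274* UMI made up 25.6% (24.5 to 26.7) for Ctrl, 25.8% (24.6 to 27) for LP1 and 80.0% (78.8 to 81.2) for LP4, against 49.3%, 62.4% and 97.3% without thinning. In neutrophil-like cells, a background for macrophage genes, the thinned share was 0 of 21 for Ctrl, 0 of 21 for LP1 and 4 of 30 for LP4 (13.3%, 3.76 to 30.7); a count of 0 of 21 allows a share of up to 14.3% by the limit of 3 counts and 16.1% by the exact interval. The median depths of all kept neutrophil-like cells before thinning were 2940, 5891 and 9312 UMIs, against 5151, 9349 and 11870 in macrophage-like and cycling-like cells. The *Cd274* share in LP4 was thus well above this background.

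A *Cd40* UMI was seen in 7.95%, 8.73% and 30.2% of thinned Ctrl, LP1 and LP4 cells, and in 0 of 21, 0 of 21 and 1 of 30 neutrophil-like cells (3.33%, exact upper limit 17.2% in LP4). The Ctrl and LP1 shares of *Cd40* lay under the 16.1% that 0 of 21 allows, so these thinned shares could not be told from that background. The LP4 share lay above its limit. In CPM over all kept cells, neutrophil-like cells had 0 *Cd40* UMIs in Ctrl and LP1. Their upper limits of 35.3 and 26.2 CPM lay below the library levels of 50.3 and 52.1 CPM. For *Cd86* the shares were 23.5%, 18.9% and 12.0%, with 0 of 21, 1 of 21 (exact upper limit 23.8%) and 0 of 30 neutrophil-like cells, so the LP1 share lay under its limit. In CPM, *Cd86* in LP1 was at 28.4 (7.74 to 72.7) in neutrophil-like cells, below the 126 CPM of the library. Without thinning, the *Cd86* shares were 38.5%, 42.0% and 36.1%, so the drop at 1 hour appeared at equal depth alone. *Havcr2* was seen in 4.24%, 3.96% and 4.35% of thinned cells, and in 0 of 30 neutrophil-like LP4 cells, which allows up to 10% by 3 counts and 11.6% by the exact interval, so its thinned share could not be told from that background at this number of cells. In CPM, the upper limit of *Havcr2* in neutrophil-like LP4 cells was 13.9, below the 24.6 CPM of the library. For Ctrl and LP1 these limits (35.3 and 26.2 CPM) lay above the library levels (24.3 and 20.6 CPM).

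The other members were seen in few cells. *Cd80* was found in 2.64%, 1.80% and 1.19% of thinned cells in Ctrl, LP1 and LP4, but in 4 of 30 neutrophil-like LP4 cells (13.3%), and *Icosl* in 0.504%, 0.455% and 0.8%, against 1 of 30 neutrophil-like LP4 cells (3.33%). The LP4 shares of both lay under the neutrophil-like shares, so these cells could not serve as a background for *Cd80* and *Icosl*. No share of expressing cells is therefore read. In CPM, *Cd80* was at 45.3 (23.4 to 79.1) in neutrophil-like LP4 cells, from 12 UMIs in 7 cells, above the 4.15 CPM of the library. *Icosl* there was at 26.4 CPM (10.6 to 54.4), from 7 UMIs in 5 cells, above the library's 3.84 CPM. *Pdcd1lg2* was found in 3, 8 and 5 thinned cells, too few for a comparison.

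Before thinning, an LP4 cell held a median of 11 *Cd274* UMIs, with a 10th percentile of 3 and a 90th of 29, against medians of 0 in Ctrl and 1 in LP1. After thinning the median was 2 in LP4 and 0 in Ctrl and LP1. LP4 cells without any *Cd274* UMI numbered 125 of 4670; 23 of these were among the 30 neutrophil-like cells and 86 were macrophage-like or cycling-like. Their median depth was 6096 UMIs, against 11935 in LP4 cells with the transcript. The 10% of cells richest in *Cd274* held 45.0%, 42.7% and 27.4% of its UMIs for Ctrl, LP1 and LP4. For *Cd40* these were 72.0%, 64.6% and 35.7%, while for *Cd86* they were 55.8%, 58.4% and 64.4%, so without thinning *Cd274* and *Cd40* UMIs were spread over more cells at 4 hours and *Cd86* UMIs over fewer.

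**Figure D3:**
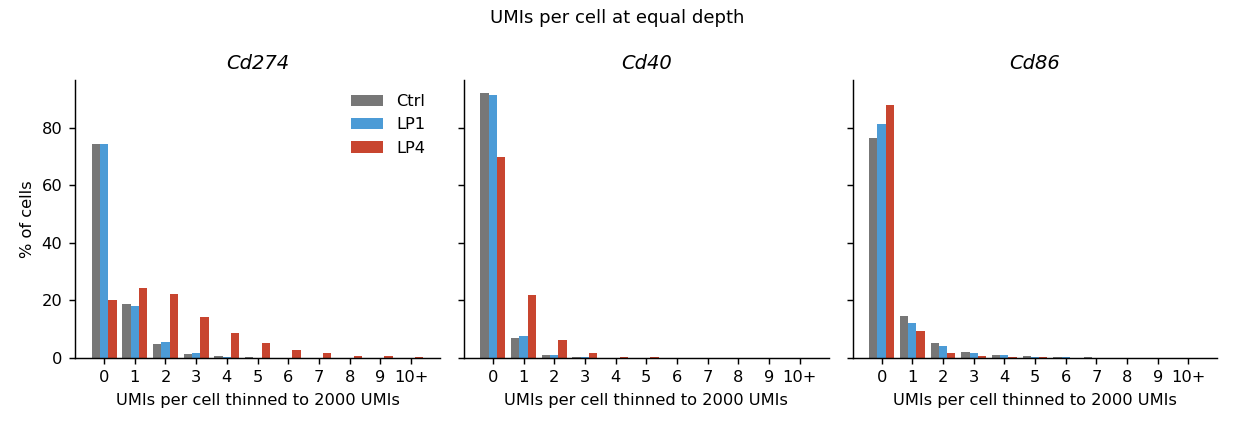
Share of cells (percent, y axis) with each number of UMIs of *Cd274*, *Cd40* and *Cd86* after every cell was thinned to 2000 UMIs, for Ctrl (grey), LP1 (blue) and LP4 (red). For *Cd274*, 80.0% of LP4 cells and 25.6% of Ctrl cells have a UMI; for *Cd86*, the share of cells at 0 grows from Ctrl to LP4.

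At equal depth, a UMI of any activating member was seen in 31.5%, 27.5% and 39.1% of cells for Ctrl, LP1 and LP4, and one of any inhibitory member in 28.9%, 29.0% and 80.8%. Cells with both made up 9.73%, 8.49% and 32.4%, and cells with neither 49.3%, 52.0% and 12.4%. The product of the shares was 9.10%, 7.98% and 31.6%, near the share with both. Among the 21 pairs of members in 3 libraries, 6 cases had an interval above the product and 0 below. *Cd80* and *Cd86* were seen together in 1.01% of Ctrl cells (0.771 to 1.30) where the product was 0.621%, and in 0.594% of LP1 cells (0.401 to 0.847) where it was 0.341%. *Cd86* was seen above the product with *Cd274* in Ctrl (6.64%, 6.02 to 7.30, against 6.01%) and LP1 (5.52%, 4.91 to 6.19, against 4.87%). The lower limits of these 2 cases lay close to the product. It was also above it with *Havcr2* in Ctrl (1.34%, 1.07 to 1.67, against 0.996%) and with *Cd40* in LP4 (4.35%, 3.78 to 4.97, against 3.62%). The 63 intervals carry no correction for their number. The product also takes no account of differences between the cell clusters described below. In Ctrl, cluster A had 29.1% of the cells, 40.3% of the *Cd80* UMIs and 59.6% of the *Cd86* UMIs. Whether such differences account for the cases above the product was not tested. All 6 cases at this depth included *Cd86*. Thinning to 4000 UMIs left 4318 Ctrl, 4932 LP1 and 4537 LP4 cells, so the Ctrl set was smaller than the 5949 cells at 2000. Cluster A had a median depth of 3742 UMIs in Ctrl, so most of its Ctrl cells were left out. At 4000 UMIs only *Cd80* with *Cd86* remained above the product, in Ctrl (2.15% against 1.23%) and LP1 (1.70% against 0.974%). Whether the change of cells accounts for the cases lost in Ctrl was not tested. There *Icosl* with *Havcr2* also lay above it, in 10 Ctrl cells (0.232% against 0.0797%) and 16 LP4 cells (0.353% against 0.115%), and *Cd40* with *Cd274* in Ctrl lay below it (5.56% against 6.39%).

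The kept cells formed 11 clusters, A to K by size, when clustered without the members. Clusters A to E and J were macrophage-like, F cycling-like, G dendritic cell-like, H neutrophil-like and K stromal-like, and I, of low depth, was not named; *Ddit3*, a stress gene, led J. Clusters A to G had at least 50 cells in every library and were compared. *Egr3*, *Apoe* and *Nr4a3* led A, *Mgll*, *Eef1a2* and *Mmp9* led B, *Ccnd1* and *Psd3* led C, *Hal* and *Ms4a4a* led D, *Fabp4* led E, and MHC class II genes led G, which had 77, 68 and 67 cells. The name of G rests on 4 markers of its list, *H2-Eb1*, *H2-Aa*, *H2-Ab1* and *Cd74*. Of the other markers, *Itgax* had 2924, 4467 and 4242 UMIs over the whole libraries of Ctrl, LP1 and LP4. *Flt3* had only 8, 12 and 12, *Ccr7* 10, 21 and 20, and *Clec9a* 12, 12 and 36. Each of 5 macrophage markers was seen in at least 50% of the cells of G, so no lineage is read from its name.

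*Cd86* differed widely between the clusters. In Ctrl it was at 503 CPM in A and 27.5 CPM in B, a ratio of 18.3, and A, with 29.1% of the cells, held 59.6% of its UMIs. The log2 ratio of LP4 over Ctrl was -1.64 (-1.72 to -1.56) in A, -1.33 (-1.45 to -1.20) in D and -0.61 (-0.89 to -0.32) in F. In B it was 0.55 (0.34 to 0.76), from 27.5 to 40.1 CPM, and in G 0.41 (0.09 to 0.75), from 233 to 310 CPM. In C it was -0.05 (-0.30 to 0.19) and in E 0.10 (-0.14 to 0.35), although E (62.4 CPM) and F (62.8 CPM) had like levels in Ctrl. A and D (196 CPM), both rich in *Cd86* in Ctrl, thus came down. The dendritic cell-like cluster G, also rich, did not, and it was the highest in LP4. The difference between the highest and lowest cluster narrowed to 7.72 times. A held 36.8% of the *Cd86* UMIs in LP4. In counts, A had 3507 *Cd86* UMIs in 1766 Ctrl cells and 1703 in 1173 LP4 cells, and D 1357 in 846 and 943 in 817, so both were lower per cell too, whereas F had 206 in 362 and 201 in 222 and was higher per cell.

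All 7 clusters had more *Cd274* at LP4 than at Ctrl, with log2 ratios from 2.00 (1.76 to 2.26) in G to 3.06 (2.94 to 3.19) in C. Its highest level was in G in each library, at 321, 398 and 1287 CPM, and its lowest in F, at 115, 113 and 789 CPM. *Cd40* was also higher in all 7, from 1.35 (1.13 to 1.57) in F to 2.88 (2.17 to 3.68) in G. At LP4 it spanned only 175 CPM in F to 269 CPM in G. For LP1 over Ctrl, *Cd40* had a log2 ratio of 1.20 (0.41 to 2.07) in G, from 17 UMIs in Ctrl and 61 in LP1. It was 0.24 (0.01 to 0.49) in A and -0.39 (-0.64 to -0.13) in F, and the other intervals held 0. For LP4 over Ctrl, *Cd274* and *Cd40* were the 2 members that moved one way in every cluster at this resolution. *Cd80* did so too at other resolutions, lower in all 5 clusters compared at 0.3 and all 8 at 0.8. The share of all genes that moved one way in every cluster was not computed.

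*Cd80* was lower in LP4 in 6 of 7 clusters, each with an interval under 0, and lowest in ratio in A (-2.38, -2.85 to -1.94). In G it had 3 UMIs in Ctrl and 6 in LP4, with a log2 ratio of 0.09 (-2.14 to 2.71). *Havcr2* was at 37.2 CPM in C and 36.9 CPM in F in Ctrl, and at 12.7 CPM in B. Its log2 ratio of LP4 over Ctrl was 0.37 (0.11 to 0.62) in A but -0.41 (-0.68 to -0.13) in C and -0.61 (-1.15 to -0.06) in E at this resolution. At resolutions of 0.3 and 0.8 its intervals lay on 1 side of 0 alone, with 1 cluster above and 0 below at 0.3, and 0 above and 2 below at 0.8.

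Among clusters A to G, *Icosl* was highest in the cycling-like cluster F in each library, at 5.49, 6.47 and 11.9 CPM, and lowest in B, at 0.314, 0.363 and 0.497 CPM. Its log2 ratio of LP4 over Ctrl was 1.32 (0.39 to 2.36) in D, 1.12 (0.28 to 2.07) in C and 1.12 (0.33 to 1.97) in F, but -1.13 (-2.08 to -0.21) in A; at a resolution of 0.8, 3 clusters had an interval above 0 and 0 below. In the small cluster J, 6 of 11 LP4 cells held 17 *Icosl* UMIs, 7.20% of that library's, or 97.5 CPM (56.8 to 156), above F. Of the 77 *Pdcd1lg2* UMIs in LP4, 36 (46.8%) came from 29 cells of B, a cluster with 19.7% of the cells, and the log2 ratio there was 2.41 (0.93 to 4.37) from 4 UMIs in Ctrl. Cells of B were deep in LP4, with a median of 16213 UMIs. In CPM, the *Pdcd1lg2* level of 2.24 in B was close to 2.26 in F, 2.29 in G and 1.98 in E. Those 3 levels came from 11, 2 and 12 UMIs. A, C and D were at 0.569, 0.390 and 0.498 CPM.

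**Figure D4:**
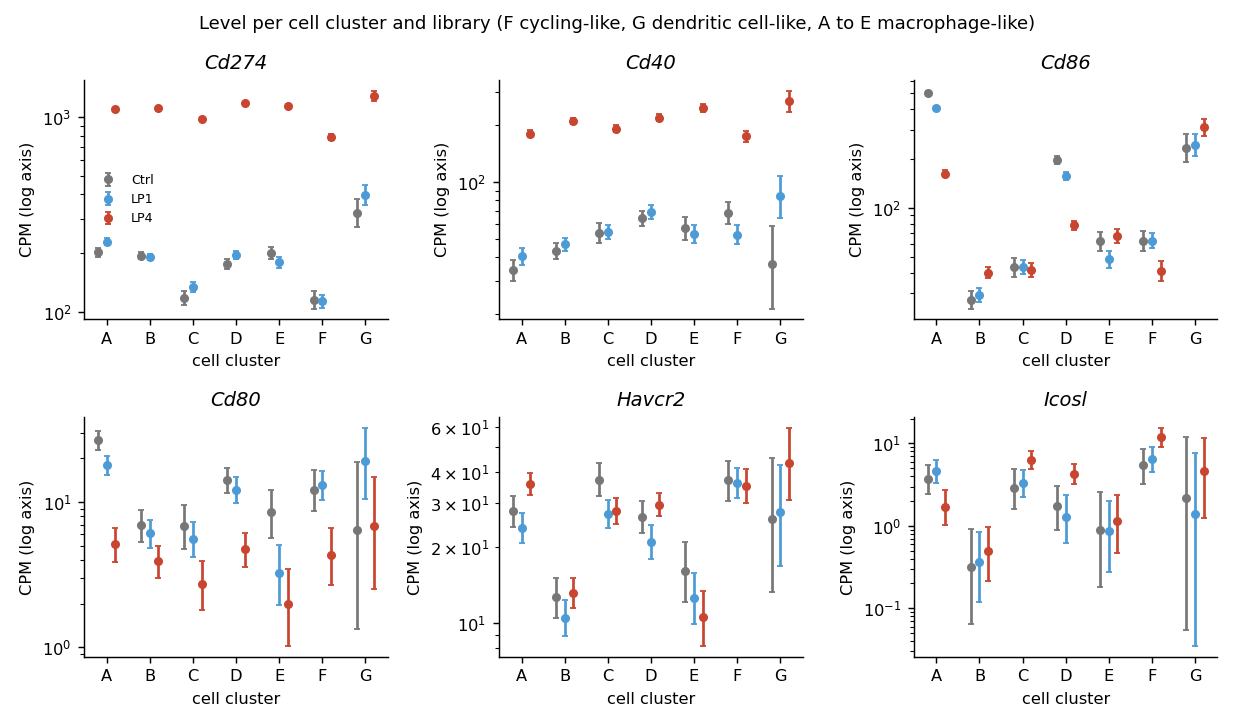
Level (CPM, log axis) of 6 members in clusters A to G for Ctrl (grey), LP1 (blue) and LP4 (red), with 95% Poisson intervals; F is cycling-like, G dendritic cell-like and the others macrophage-like. *Cd274* and *Cd40* are higher at LP4 in all 7 clusters, while *Cd86* is lower in A (503 to 162 CPM) and higher in B (27.5 to 40.1 CPM).

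In each of the 7 clusters, LP4 exceeded Ctrl in the ratio of inhibitory to activating UMIs. In A, rich in *Cd86*, it went from 0.405 to 3.25. In B it was already 2.67 in Ctrl and reached 4.39, and in G it went from 1.26 to 2.26. The span between clusters was therefore narrower at 4 hours.

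Over the 21 sums of 7 clusters in 3 libraries, *Cd274* and *Cd40* varied together, with a Pearson r of 0.90 on log2(CPM + 1), and *Cd80* and *Cd86* had an r of 0.64. The points share libraries, so these values are descriptions without a test. Among 3638 genes, those most like *Cd274* were *Samhd1* (r = 0.983), *Tmem170b* (0.980) and *Wdr37* (0.979), and those most like *Cd40* were *Fndc3a* (0.963), *Timp1* (0.960) and *Rap2c* (0.958). *Fam129a* (0.932), *Aif1* (0.919) and *Sik3* (0.902) were most like *Cd86*, and *Ubn1* (0.907), *Zc3h12c* (0.878) and *Chd2* (0.876) most like *Cd80*. The scarcer members had weaker matches: *H2afz* (0.783), *Nab1* (0.780) and *Mki67* (0.764) for *Icosl*, and *Irf1* (0.676), *Tmsb10* (0.672) and *S100a11* (0.669) for *Pdcd1lg2*. For *Havcr2* they were *Srrm2* (0.897), *Ythdc1* (0.884) and *Tgfbi* (0.837).

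No gene of the lists below with at least 50 UMIs over the libraries passed 2 times between LP1 and Ctrl. Scarcer genes were not compared. For LP4 over Ctrl, the counts and medians of these short lists stand beside 10.9% of all genes higher, 15% lower and a median log2 ratio of -0.15. Of 6 other activating ligands with enough UMIs, 2 were higher and 1 lower in LP4 than in Ctrl, with a median log2 ratio of 0.24. *Tnfsf15*, which encodes TL1A, was at 0.616, 0.953 and 53.4 CPM in Ctrl, LP1 and LP4. *Tnfsf14*, which encodes LIGHT, was at 3.33, 2.95 and 11.2 CPM, and *Cd48* at 24.8, 36.5 and 47.7 CPM, just inside 2 times. *Tnfsf9*, which encodes 4-1BB ligand, went the other way, at 114, 124 and 24.7 CPM. Its receptor gene *Tnfrsf9* was at 0.476, 0.438 and 9.64 CPM, so ligand and receptor had opposite ratios (-2.20 and 4.34).

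Of 9 other inhibitory ligands, 0 were higher and 2 lower in LP4, with a median of -0.16. *Pvr*, a ligand of TIGIT, was at 102, 96.6 and 28.1 CPM, and *Vsir*, which encodes VISTA, at 105, 88.3 and 51.6 CPM. *Lgals9*, which encodes galectin-9, a ligand of TIM-3, was at 99.0, 76.9 and 188 CPM (log2 ratio of LP4 over Ctrl 0.93), and *Ceacam1* at 12.0, 9.83 and 6.77 CPM (-0.82). The ratio of *Cd274* was thus not shared by the list: its highest log2 ratio was the 0.93 of *Lgals9*.

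Of 10 genes listed as inhibitory receptors of myeloid cells, 1 was higher and 0 lower, with a median of 0.13. The 1 was *Timd4*, known as a receptor for phosphatidylserine on dying cells and named after its values were seen, with 11, 10 and 52 UMIs. It was scarce, at 0.308, 0.191 and 0.847 CPM, and no other gene of these 10 passed 2 times. *Sirpa*, the receptor for CD47, was at 686, 727 and 460 CPM, *Pirb* at 127, 119 and 97.0 CPM, *Cd33* at 13.5, 16.4 and 18.1 CPM, and *Clec12a* at 157, 177 and 193 CPM. Of 12 partner receptors and ligands known from T cells, only 3 had enough UMIs, of which 1 was higher (*Tnfrsf9*) and 1 lower (*Cd28*, at 15.3, 15.9 and 5.63 CPM). *Pdcd1*, which encodes PD-1, was at 0 UMIs in each library. The T cell markers summed to 1.37, 1.05 and 3.66 CPM.

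Of 10 genes of CD40 signalling, 1 was higher and 1 lower, with a median of 0.38. *Traf2*, an adaptor of the receptor, was at 9.33, 8.75 and 23.9 CPM, and *Map3k14*, which encodes the kinase NIK of the alternative NF-κB pathway, at 18.9, 15.5 and 7.54 CPM. The adaptor gene *Traf5* (0.83) and the ubiquitin ligase gene *Birc2* (0.93) had log2 ratios of LP4 over Ctrl under 1.

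Of 9 genes known to control PD-L1, 3 were higher and 0 lower, with a median of 0.32. *Stat3*, which encodes a transcription factor downstream of cytokine receptors, was at 69.5, 69.6 and 252 CPM. *Jak2*, a kinase of that pathway, was at 117, 126 and 470 CPM, and *Cmtm6*, whose product keeps PD-L1 at the cell surface, at 10.6, 16.1 and 44.4 CPM. The log2 ratios of LP4 over Ctrl of these 3 lay between 1.86 (*Stat3*) and 2.07 (*Cmtm6*). *Rela*, an NF-κB subunit, had a ratio of 0.36, and *Irf1*, a factor known to act on *Cd274*, had a ratio of 0.18.

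**Figure D5:**
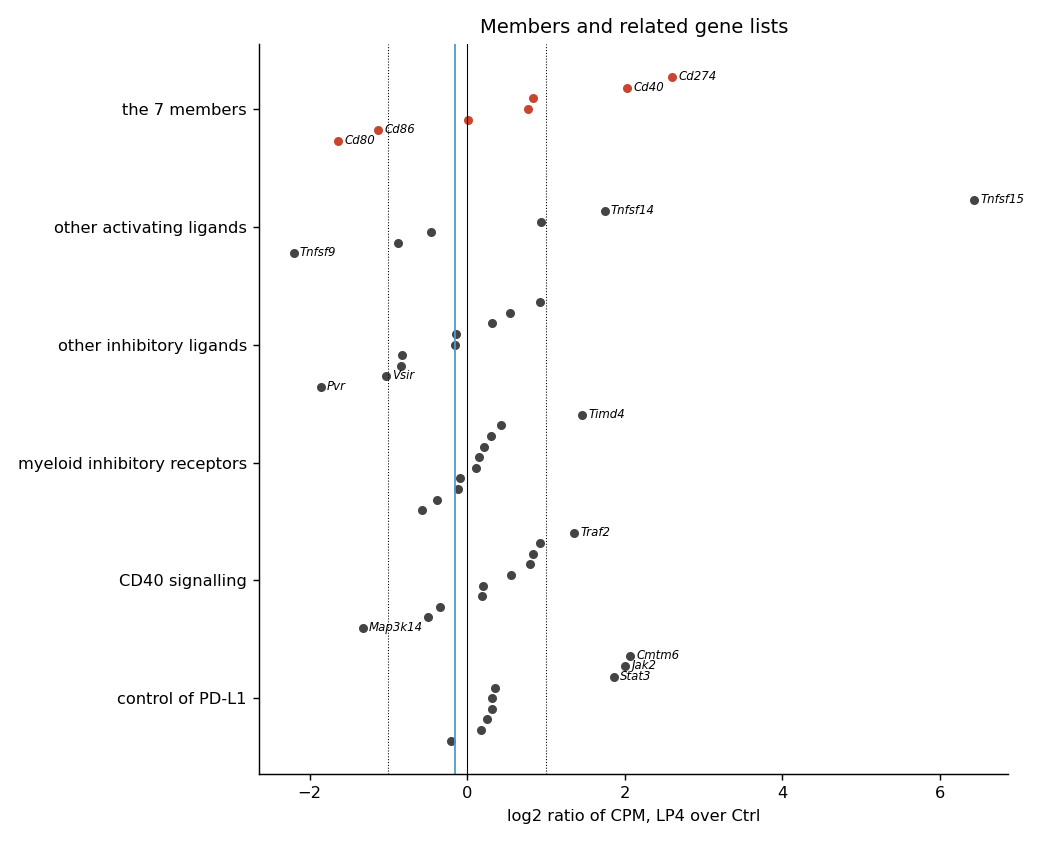
Log2 ratio of CPM, LP4 over Ctrl, for the 7 members (red) and for genes of 5 related lists (dark grey), 1 point per gene with at least 50 UMIs; dotted lines mark 2 times and the blue line the median of all genes (-0.15). Genes past 2 times are named; 3 of the 9 genes that control PD-L1 lie near 2. *Cd86*, at -1.13 here, had a ratio of 0.03 per cell, beside a median of 1.01 over all genes.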

How the data were processed

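Single-cell RNA of BMDMs was measured with a droplet 3′ kit in 1 library each of Ctrl, LP1 and LP4. The authors aligned reads to the mouse mm10 transcriptome with Cell Ranger (7.1.0 in the submitters' processing notes; the paper's methods name another version) and deposited UMI counts per gene and called cell, without normalization. Whether reads in introns were counted is not given in the sources used here. The 7 members and all lists were chosen with earlier results of these data known.

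Barcodes with over 500 UMIs, over 500 genes and under 5% mitochondrial UMIs were kept. Levels are CPM of the UMIs summed over kept cells. Intervals are at 95% and cover counting error only: exact Poisson for levels, exact binomial for shares of cells, and exact binomial given the total of both libraries for log2 ratios. Ratios between clusters use the same sums. Genes with at least 50 UMIs over the 3 libraries were compared, and a change of at least 2 times is the limit used, with no test, since each condition is 1 library. The ratio of inhibitory to activating UMIs within a library was compared between libraries with a normal interval on the log scale.

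Clustering used 2000 variable genes of 5263 that exclude members, listed genes and genes that differ by 1.5 times between libraries, centred within library, with 30 components, 20 neighbours and Leiden at a resolution of 0.5. Clusters were named from marker lists. Cells were thinned to 2000 UMIs for shares (seed 20). The automatic doublet call of Scrublet marked under 0.5% of cells and so had not worked; an alternative left out the 5% with the highest score. Besides the members, up to 4 genes per list with the largest LP4 over Ctrl ratio and at least 10 CPM, and the 3 genes most like each member among those with at least 50 CPM, are named; *Tnfrsf9*, *Timd4*, *Pdcd1*, *Irf1* as a control gene of PD-L1 and the genes near *Cd274* were named after their values were seen. Positions are from GENCODE on GRCm38. TMM factors alone came from edgeR 4.0.16 in R 4.3.3, and all else from Python 3.11.15 with scanpy 1.11.5, igraph 0.11.9, scipy 1.17.1, numpy 2.4.6, pandas 2.3.3 and matplotlib 3.10.9. The result for 1 gene of the list on control of PD-L1 is not reported here, and the list's counts and median leave it out. The scripts were tested on simulated data. Alternatives were other cell filters, scalings, limits, depths, resolutions and sets of members.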

Additional observations from a re-analysis of the deposited data

Results flagged for a closer look

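The 273 LP4 barcodes that failed only the mitochondrial limit took no part in the comparisons and still carried 213.5 CPM of *Cd40* (198 to 230) and 959.3 CPM of *Cd274* (926 to 993), above the 50.3 and 176 CPM of Ctrl and near the 205 and 1070 CPM of the kept LP4 cells.

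Some members had ratios of LP4 over Ctrl on both sides of 0 among the clusters, counting only ratios whose interval leaves out 0. For *Cd86* the log2 ratio was highest in cluster B at 0.547 and lowest in A at -1.639. For *Icosl* it was 1.315 in D and -1.128 in A, and for *Havcr2* 0.365 in A and -0.611 in E. At a resolution of 0.3 no cluster had an interval below 0 for *Havcr2*, and at 0.8 none had one above 0 for *Havcr2* or below 0 for *Icosl*. With 1 library per condition these differences between clusters were not tested.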

How the results depend on the processing

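No paired analysis was possible because each condition is 1 library, and for the same reason no replicate could be left out. The log2 ratios of *Cd274* and *Cd40*, LP4 over Ctrl, ranged from 2.57 to 2.81 and from 2.00 to 2.23 over the alternatives other than UMIs per cell, and those of *Cd80* and *Cd86* from -1.73 to -1.43 and from -1.28 to -0.92. For LP4 over Ctrl, a limit of 1.5 times gave 4 higher members (19.9% of all genes), and TMM scaling and median-of-ratios scaling each gave 1 lower member. For LP4 over LP1, 1.5 times gave 4 higher and 2 lower (17.5% and 24.1% of all genes). UMIs per kept cell, chosen after seeing the data, gave 5 higher and 0 lower members for LP4 over Ctrl, where 50.7% of all genes were higher and 3.11% lower. For LP4 over LP1 it gave 3 higher and 0 lower, where these were 15.8% and 6.96%. It turned the sign of *Cd86* for LP4 over Ctrl (0.033, beside a median of 1.01 over all genes). For LP1 over Ctrl it turned the sign of *Cd80* (0.41), *Cd86* (0.43) and *Havcr2* (0.57), each below the median of 0.78 over all genes. Its construction carries the greater UMI number of treated cells.

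The log2 change of the inhibitory to activating ratio was 0.11 for LP1 over Ctrl, 1.14 for LP4 over Ctrl and 1.04 for LP4 over LP1 as a mean of the members' log2 ratios. In the same order it was 0.031, 0.74 and 0.71 without *Cd86*, and 0.42, 3.71 and 3.29 without the receptors. As a mean of cell shares it was 2.25 for LP4 over Ctrl and 1.96 for LP4 over LP1. Without thinning, 5 members had a higher and 1 a lower share of cells in LP4 than in Ctrl with intervals apart, against 2 and 2 at 2000 UMIs. LP4 cells were deeper, with a median of 11784 UMIs against 5133 in Ctrl. The share of all genes that meet this was not computed, so these counts are not read as a result about the members. Thinned to 4000 UMIs, pairs of members lay above the product in 4 cases, against 6, and below it in 1 (*Cd40* with *Cd274* in Ctrl), against 0. That depth kept 4318 Ctrl cells, against 5949 at 2000 UMIs. Apart from construction, the causes were not tested. The counts of *Pdcd1lg2* (25 to 77 UMIs) and *Icosl* (80 to 236) limit what can be said of them.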

Other observations

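*Cd274* and its neighbours on chromosome 19 were listed within 150 kb, a choice made after seeing the data. *Jak2*, which ends upstream of *Cd274*, was at 117, 126 and 470 CPM in Ctrl, LP1 and LP4 (log2 ratio of LP4 over Ctrl 2.01, 1.96 to 2.05), the ratio nearest to the 2.60 of *Cd274*. The antisense gene *AC119228.1* had a ratio of 1.77 (1.58 to 1.96). *Plgrkt*, which starts back to back with *Cd274*, had 0.79 (0.71 to 0.88), *Ric1* 0.73 (0.65 to 0.81), *A930007I19Rik* 0.25 (0.14 to 0.37) and *Insl6* 0.24 (0.06 to 0.42), and *Rln1* had 0 UMIs in each library. *Plgrkt* was at 44.7, 70.6 and 77.5 CPM, so most of its difference was present at 1 hour, when *Cd274* was close to Ctrl.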
